A study of Mus musculus with 8 samples.

Results

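Respiratory complex I, the NADH:ubiquinone oxidoreductase of the mitochondrial inner membrane, is followed here through the 35 nuclear genes whose platform symbol is Ndufa, Ndufb, Ndufc, Ndufs or Ndufv directly followed by a digit, out of 19938 genes measured. The assembly factors (Ndufaf) and the acyl carrier gene Ndufab1 are not among them. The 35 genes comprised 14 Ndufa, 9 Ndufb, 2 Ndufc, 7 Ndufs and 3 Ndufv genes. A gene counted when a probe set carried its symbol alone, and the brightest such probe set stood for it. Ndufb4 shared its probe sets with the symbol Ndufb4b and was therefore not a member. Of the 35 genes, 33 had a mean at or above the median of all single-symbol probe sets (a log2 value of 7.41), and Ndufa4l2 and Ndufb2 lay below it.

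Livers came from adult male mice of 2 groups with 4 mice in each. The knockout-labelled mice had the genotype Albumin-Cre Rictor LoxP/LoxP. It deletes Rictor, a defining subunit of mTOR complex 2, where the albumin promoter drives Cre, chiefly in hepatocytes. Liver cells in which Cre was never active keep the gene, and which cells these are was not examined. The controls are labelled wild type, and the labels do not say whether they carried Cre or the floxed allele. All 8 mice were fasted for 16 h and then had free access to food for 3 h, and each liver was hybridised to 1 Affymetrix Mouse Gene 1.0 ST array. Values are log2 expression values, and every difference below is a log2 fold change, knockout-labelled minus wild type, with n = 4 in each group. The comparison asks how the complex I transcripts of refed liver differ when hepatocytes are labelled as lacking Rictor.

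Complex I takes electrons from NADH, passes them through a flavin and a chain of iron-sulfur clusters to ubiquinone, and pumps protons across the inner membrane. Its core subunits carry out this chemistry and are shared with bacteria, and those encoded in the nucleus here belong to the Ndufs and Ndufv genes. The accessory subunits, mostly Ndufa, Ndufb and Ndufc, surround the core and are needed for assembly and stability. In liver the complex reoxidises the NADH made by fatty acid oxidation and the citric acid cycle.

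Several facts about the arrays bear on every value. Rictor itself read 9.15, 9.51, 9.68 and 9.47 on knockout-labelled arrays 1 to 4, against 9.47, 9.28, 9.23 and 9.64 on wild-type arrays 1 to 4, so its mean did not fall (difference 0.05, SE 0.13; exact permutation p = 0.83). The exons covered by its probe set were not examined, and it gives no check of the genotype labels. On the first principal component, with 35.8% of the variance, knockout-labelled arrays 2 to 4 lay between 0.410 and 0.458 and wild-type arrays 2 to 4 between -0.344 and -0.298. The arrays numbered 1 stood apart from their groups, at -0.310 for the knockout-labelled one, among the wild-type values, and at -0.0293 for the wild-type one. Results are therefore given with and without these arrays where the count or the call changes. The hepatocyte marker list (9 of 10 genes measured, among them Alb, Ttr and Apob) had a mean log2 value of 13.87 to 13.90 on the knockout-labelled arrays and 13.85 to 13.90 on the wild-type arrays, which fits the labelled tissue. In whole liver, fewer cells of a type and less RNA per cell cannot be told apart.

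Means of most complex I genes were higher in the knockout-labelled livers, namely in 21 of 29 accessory genes and 5 of 6 core genes, with a median difference of 0.178 for the accessory and 0.0517 for the core genes. Of the 35 genes, 26 had a higher and 9 a lower mean on the knockout-labelled arrays. Over all genes the share with a higher mean was 43.1%. The median difference of the 35 genes was 0.14, against -0.02 for all genes. Without wild-type array 4 the median difference of the 35 genes was 0.0837, with 23 genes higher, and without wild-type array 1 it was 0.189, with 30 higher. With all 8 arrays no member passed the threshold of 0.05 after adjustment over all probe sets (limma, smallest adjusted p = 0.143), and neither did any other gene (0% of 19938). At an unadjusted limma p under 0.05 there were 11 members higher and 0 lower, where 3.84% of all genes were higher and 6.61% lower. In 3 members, Ndufa1, Ndufa8 and Ndufa9, every knockout-labelled array lay above every wild-type array, as in 1.81% of all genes. No member had the opposite separation, which 2.61% of all genes had. These counts describe the members beside all genes and are not a test of the list.

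**Figure D1:**
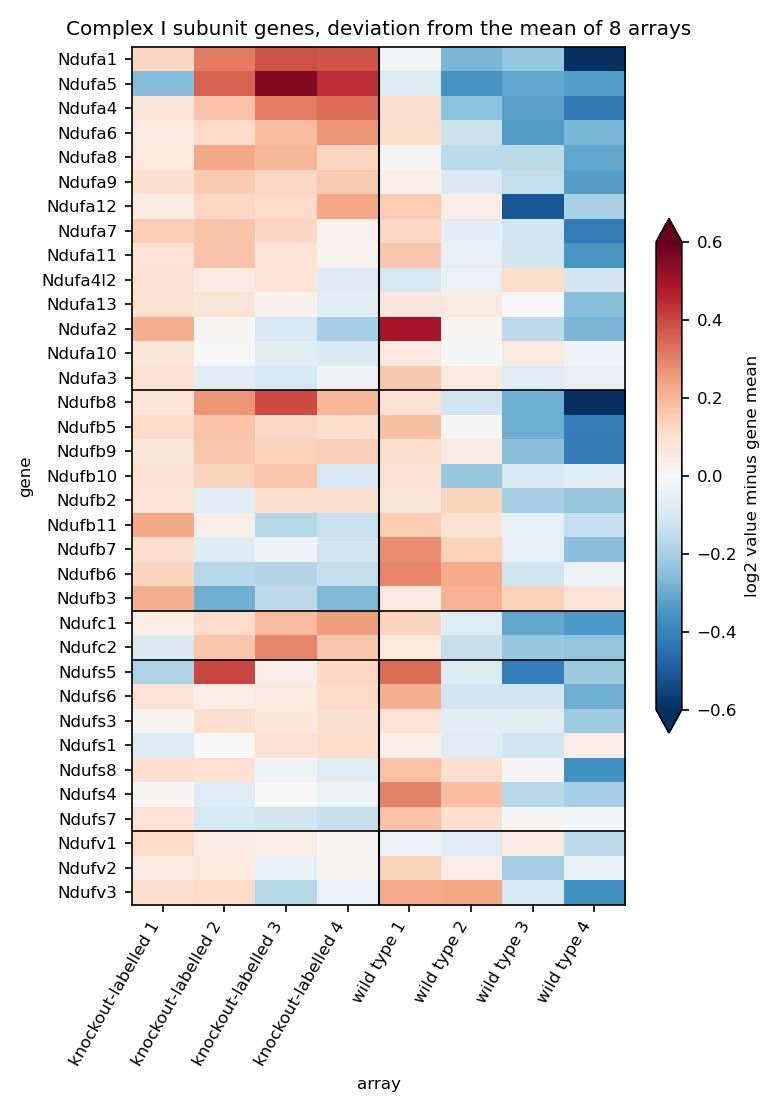
Log2 value of each complex I gene (rows, grouped as Ndufa, Ndufb, Ndufc, Ndufs and Ndufv) on each array (columns, knockout-labelled left of wild type) minus the mean of that gene over the 8 arrays, with colours saturating beyond 0.6 in either direction. Wild-type array 4 is the lowest of the 8 arrays in 22 of 35 genes, and wild-type array 1 the highest of its group in 29.

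The wild-type arrays, not the knockout-labelled ones, held most of the spread within groups. The median over members of the within-group range was 0.194 on the knockout-labelled arrays and 0.412 on the wild-type arrays, and the wild-type range was the larger one in 28 of 35 members (80%), against 43.1% of all genes. Relative to each gene's mean over the 8 arrays, the median deviation of the members was 0.0860, 0.0939, 0.0812 and 0.0216 on knockout-labelled arrays 1 to 4, and 0.111, -0.0413, -0.121 and -0.249 on wild-type arrays 1 to 4. Wild-type array 1 thus lay as high as the knockout-labelled arrays, and wild-type array 4 lay far below the rest. The same median over all genes was -0.0016 on wild-type array 4, so its low position did not extend to all genes. It was the lowest of the 8 arrays in 62.9% of the members, compared with 13.4% of all genes, and wild-type array 1 was the highest wild-type array in 82.9% of the members, compared with 26.4% of all genes.

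The core subunits are described in the order in which electrons pass them. Ndufv1 binds NADH and the flavin. It read 11.76, 11.69, 11.69 and 11.65 on knockout-labelled arrays 1 to 4, against 11.61, 11.57, 11.70 and 11.49 on wild-type arrays 1 to 4. Wild-type array 3 lay inside the knockout-labelled range and the other 3 wild-type arrays below it, and the difference was 0.11 (95% interval -0.06 to 0.28; limma adjusted p = 0.646). Ndufv2, an iron-sulfur subunit beside it, read 12.09, 12.10, 11.98 and 12.05 on knockout-labelled arrays 1 to 4, against 12.17, 12.08, 11.83 and 11.99 on wild-type arrays 1 to 4, and the groups overlapped (difference 0.04; 95% interval -0.15 to 0.22). Ndufs1, the large iron-sulfur subunit of the NADH-oxidising module, read 10.59, 10.68, 10.77 and 10.79 on knockout-labelled arrays 1 to 4, against 10.71, 10.60, 10.56 and 10.72 on wild-type arrays 1 to 4. Its groups overlapped too, with a difference of 0.06 (95% interval -0.13 to 0.25).

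Among the subunits that lead to ubiquinone, Ndufs8 carries iron-sulfur clusters, Ndufs7 carries the last cluster before ubiquinone, and Ndufs3 is a structural core subunit of the same arm. Ndufs8 read 11.32, 11.31, 11.19 and 11.14 on knockout-labelled arrays 1 to 4, against 11.39, 11.31, 11.22 and 10.85 on wild-type arrays 1 to 4. Wild-type arrays 1 and 4 were the highest and the lowest of the 8, and the difference of 0.04 (95% interval -0.20 to 0.29) changed sign without wild-type array 4 (-0.07). Ndufs3 read 11.47, 11.55, 11.52 and 11.55 on knockout-labelled arrays 1 to 4, against 11.54, 11.38, 11.38 and 11.24 on wild-type arrays 1 to 4, with wild-type array 1 inside the knockout-labelled range and the other wild-type arrays below it (difference 0.14, SE 0.08; limma adjusted p = 0.584). The second probe set of Ndufs3 gave 0.14 as well. Ndufs7 was the core gene with a lower mean. It read 13.21, 13.02, 13.02 and 12.98 on knockout-labelled arrays 1 to 4, against 13.30, 13.22, 13.13 and 13.12 on wild-type arrays 1 to 4, so that knockout-labelled array 1 lay within the wild-type range and the other 3 below it (difference -0.13, SE 0.07; limma adjusted p = 0.520). Of the 6 core genes 5 had a higher mean, their median difference was 0.0517 (0.0984 without wild-type array 1), and 0 passed at an unadjusted p under 0.05. The intervals of these 6 genes ran from -0.29 at the lowest to 0.32 at the highest.

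Sequence upstream of the members was read for motifs named in the regulation of respiratory chain genes. RefSeq promoters (GRCm38.p6) were listed for 31 of the 35 genes, and the 250 bases before the start were searched on both strands. The NRF1 motif (GCGCA, any base, then GCGC) was found in 5 of 31 genes (16.1%), Ndufa5, Ndufa8, Ndufa11, Ndufs5 and Ndufs6, against 3.74% of the 32851 promoters listed. The ETS motif CCGGAAG of GABP was in 3 (9.68%, against 6.91%), the ERR motif AAGGTCA in 2 (6.45%, against 4.08%), the cyclic AMP response element TGACGTCA in 3 (9.68%, against 1.55%), the GC box GGGCGG in 12 (38.7%, against 32.7%) and the YY1 motif AAGATGGC in 0 (against 1.56%). A gene with several listed starts counted if any of them held the motif, whereas the shares over all promoters count each start, non-coding genes included. A match describes letters only. The stretches below belong to the 5 members with the smallest p, except Ndufa1, and to Ndufb3, the member with the lowest difference. Each runs 5′ to 3′ up to the base before the start, with matches to the 6 motifs in capitals, and bases that lie within another annotated gene were left off. This shortened the stretch of Ndufa8 to 134 bases, next to Morn5, and that of Ndufb3 to 63 bases, next to Fam126b. For Ndufa1 the window overlaps the neighbouring gene Rnf113a1 and is not shown. Ndufa5 has another listed start, whose window (chr6:24527527-24527776) overlaps Ndufa5 itself and is not shown. Ndufa5 is among the 12 genes with a GC box through that window, not through the stretch shown. No matches overlapped in these stretches. Ndufa5 and Ndufa8 each hold an NRF1 match, at 26 to 17 and 30 to 21 bases before the start, Ndufa8 and Ndufb8 hold GC boxes, and Ndufa4, over 250 bases, and Ndufb3, over its 63 bases, hold no match.
Ndufa4 (chr6:11907451-11907700, minus strand): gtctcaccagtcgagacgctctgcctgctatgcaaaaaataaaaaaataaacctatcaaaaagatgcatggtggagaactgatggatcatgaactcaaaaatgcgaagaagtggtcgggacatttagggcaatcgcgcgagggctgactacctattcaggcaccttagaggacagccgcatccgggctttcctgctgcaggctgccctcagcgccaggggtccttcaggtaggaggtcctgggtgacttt
Ndufa5 (chr6:24527691-24527940, minus strand): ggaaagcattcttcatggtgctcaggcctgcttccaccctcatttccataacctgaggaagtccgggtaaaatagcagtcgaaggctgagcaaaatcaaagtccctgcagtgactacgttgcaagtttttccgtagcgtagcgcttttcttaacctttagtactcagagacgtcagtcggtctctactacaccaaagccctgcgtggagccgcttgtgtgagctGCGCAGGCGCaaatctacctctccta
Ndufa8 (chr2:36049339-36049472, minus strand): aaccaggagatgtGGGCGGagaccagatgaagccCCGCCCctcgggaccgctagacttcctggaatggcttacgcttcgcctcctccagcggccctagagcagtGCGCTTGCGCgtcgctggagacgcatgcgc
Ndufb8 (chr19:44555443-44555692, minus strand): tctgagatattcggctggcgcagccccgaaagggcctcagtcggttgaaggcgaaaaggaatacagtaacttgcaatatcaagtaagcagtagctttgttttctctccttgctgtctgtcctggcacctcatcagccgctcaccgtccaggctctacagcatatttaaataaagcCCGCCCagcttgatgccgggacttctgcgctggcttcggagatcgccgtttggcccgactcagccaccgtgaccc
Ndufb3 (chr1:58586334-58586396, plus strand): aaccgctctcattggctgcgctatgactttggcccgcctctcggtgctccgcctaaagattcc

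The median difference of the Ndufa genes was 0.247, with 11 of 14 higher, and all 3 members whose groups did not overlap were among them. Ndufa1, a small membrane subunit encoded on the X chromosome and required for assembly of the complex, read 8.54, 8.72, 8.79 and 8.79 on knockout-labelled arrays 1 to 4, against 8.40, 8.14, 8.18 and 7.74 on wild-type arrays 1 to 4. All knockout-labelled arrays were above all wild-type arrays, and wild-type array 4 stood lowest by a wide margin. The mean was 8.71 ± 0.12 in knockout-labelled and 8.11 ± 0.28 in wild-type livers (SD, n = 4 each), a difference of 0.60 or 1.52-fold (95% interval 0.32 to 0.88; limma adjusted p = 0.143; exact two-sided permutation p = 0.0286, the smallest that 4 against 4 arrays allow).

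Ndufa5 is an accessory subunit of the arm that projects into the matrix. It read 8.07, 8.68, 8.88 and 8.77 on knockout-labelled arrays 1 to 4, against 8.25, 7.97, 8.02 and 7.99 on wild-type arrays 1 to 4. Knockout-labelled array 1 lay among the wild-type values, and the other 3 arrays of its group lay clearly above them. The difference was 0.54 (SE 0.15; limma adjusted p = 0.230), and 0.72 without knockout-labelled array 1 (limma adjusted p = 0.00431). Ndufa8, which carries the paired cysteine motifs of proteins imported into the intermembrane space, read 11.43, 11.60, 11.57 and 11.50 on knockout-labelled arrays 1 to 4, against 11.39, 11.21, 11.21 and 11.06 on wild-type arrays 1 to 4. The groups did not overlap, but knockout-labelled array 1 and wild-type array 1 were only a few hundredths apart. Its difference was 0.31 (SE 0.09; limma adjusted p = 0.236; exact permutation p = 0.0286).

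Ndufa9 lies at the junction of the matrix and membrane arms and binds a nicotinamide nucleotide. It read 11.14, 11.20, 11.16 and 11.20 on knockout-labelled arrays 1 to 4, against 11.07, 10.95, 10.89 and 10.71 on wild-type arrays 1 to 4. The knockout-labelled arrays were close together and above every wild-type array, with a difference of 0.27 (SE 0.09; limma adjusted p = 0.313; exact permutation p = 0.0286). Ndufa6, a matrix-arm subunit of the LYR protein family that holds an acyl carrier protein, read 10.43, 10.48, 10.55 and 10.63 on knockout-labelled arrays 1 to 4, against 10.48, 10.24, 10.03 and 10.09 on wild-type arrays 1 to 4. Wild-type array 1 fell inside the knockout-labelled range and the other 3 wild-type arrays below it (difference 0.31, SE 0.11; limma adjusted p = 0.324).

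Ndufa4 was named as a complex I subunit and has since been assigned to cytochrome c oxidase, complex IV. It read 10.60, 10.70, 10.84 and 10.86 on knockout-labelled arrays 1 to 4, against 10.63, 10.28, 10.20 and 10.10 on wild-type arrays 1 to 4. Wild-type array 1 was the exception in its group, inside the knockout-labelled range, and the difference was 0.45 (SE 0.12; limma adjusted p = 0.211). Its paralog Ndufa4l2, known as a hypoxia-induced gene, read 6.86, 6.82, 6.85 and 6.69 on knockout-labelled arrays 1 to 4, against 6.67, 6.73, 6.88 and 6.66 on wild-type arrays 1 to 4. These values overlapped fully (difference 0.07; 95% interval -0.10 to 0.24). The probe set of Ndufa4l2 was dim, where RMA shrinks fold changes, so the sizes for the pair are not set against each other. Leaving both paralogs out, the 27 other accessory genes had a median of 0.178, with 19 higher and 10 higher at an unadjusted p under 0.05.

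The other Ndufa genes were not past an unadjusted p of 0.05. Ndufa12, a matrix-arm subunit related to the assembly factor Ndufaf2, differed by 0.26 (SE 0.13), with wild-type array 3 at 8.46 as the lowest value. Ndufa7 differed by 0.23 (SE 0.11) and Ndufa11, a membrane-arm subunit, by 0.18 (SE 0.11), with 0.15 for its other probe set. Ndufa13, also known as Grim19, differed by 0.07. Ndufa2, Ndufa3 and Ndufa10 had differences of -0.04, -0.05 and -0.05, each with an interval that spans 0.

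**Figure D2:**
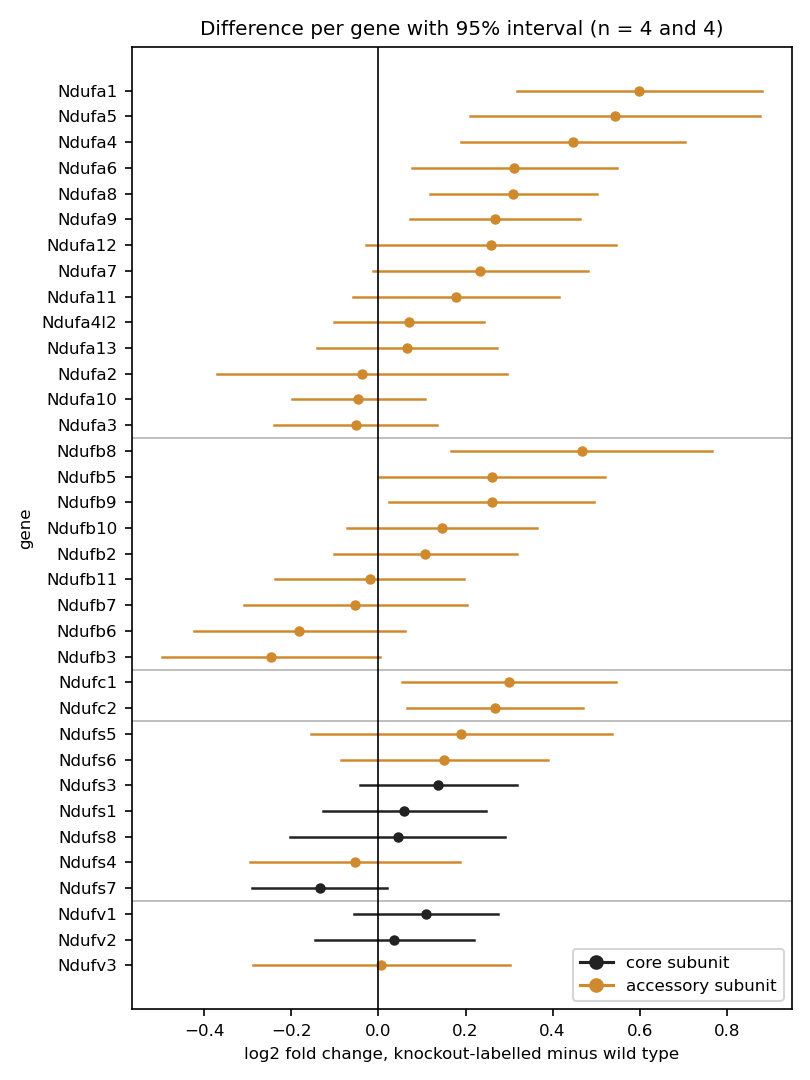
Log2 fold change (x axis, knockout-labelled minus wild type) of each complex I gene with its 95% interval from limma, n = 4 and 4, ordered within the subunit groups; core genes are black and accessory genes orange. The intervals of Ndufa1, Ndufa5, Ndufa4 and Ndufb8 lie furthest above 0, those of all 6 core genes include 0, and the lowest point is Ndufb3 at -0.25.

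The Ndufb genes, which belong to the membrane arm, differed in both directions. Their median was 0.108, with 5 of 9 higher, but 0.0504 without wild-type array 4 and 0.0580 without wild-type array 3. Ndufb8, an accessory subunit often used as a blotting marker of the assembled complex, read 9.63, 9.81, 9.94 and 9.75 on knockout-labelled arrays 1 to 4, against 9.64, 9.43, 9.26 and 8.94 on wild-type arrays 1 to 4. Wild-type array 1 overlapped knockout-labelled array 1, wild-type array 4 was the lowest of all, and the difference was 0.47 (SE 0.14; limma adjusted p = 0.252). Ndufb9, another LYR protein, read 12.23, 12.33, 12.30 and 12.31 on knockout-labelled arrays 1 to 4, against 12.26, 12.22, 11.91 and 11.74 on wild-type arrays 1 to 4, again with wild-type arrays 3 and 4 lowest (difference 0.26, SE 0.11; limma adjusted p = 0.404). Ndufb5 read 11.39, 11.45, 11.40 and 11.38 on knockout-labelled arrays 1 to 4, against 11.45, 11.28, 10.98 and 10.86 on wild-type arrays 1 to 4. The knockout-labelled values were nearly equal while the wild-type values spread over 0.597, and the difference was 0.26 (SE 0.12; limma adjusted p = 0.453).

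Ndufb3, a small membrane-arm subunit, had the lowest difference of the 35 genes. It read 8.79, 8.27, 8.41 and 8.31 on knockout-labelled arrays 1 to 4, against 8.63, 8.78, 8.71 and 8.66 on wild-type arrays 1 to 4. Knockout-labelled array 1 was the highest of all 8 arrays and the other 3 were below every wild-type array, for a difference of -0.25 (SE 0.12; limma adjusted p = 0.465). Without knockout-labelled array 1 it was -0.36 (limma adjusted p = 0.0391). Ndufb6 differed by -0.18 (SE 0.11), Ndufb7 by -0.05 and Ndufb11, the other X-linked member, by -0.02 (-0.11 for its other probe set). Ndufb2 and Ndufb10 had differences of 0.11 and 0.15.

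Both Ndufc genes, small membrane subunits, had higher means, and their median difference was 0.284. Ndufc1 read 10.79, 10.86, 10.94 and 10.996 on knockout-labelled arrays 1 to 4, against 10.88, 10.67, 10.43 and 10.40 on wild-type arrays 1 to 4, with wild-type array 1 inside the knockout-labelled range (difference 0.30, SE 0.11; limma adjusted p = 0.358), and its other probe set gave 0.29. Ndufc2 read 12.63, 12.89, 13.01 and 12.89 on knockout-labelled arrays 1 to 4, against 12.78, 12.58, 12.50 and 12.49 on wild-type arrays 1 to 4. Array 1 of each group lay toward the other group, and the difference was 0.27 (SE 0.09; limma adjusted p = 0.326). Of the accessory genes with Ndufs and Ndufv names, Ndufs4, whose loss causes a mitochondrial encephalopathy in mice, differed by -0.05 (95% interval -0.30 to 0.19), Ndufs5 by 0.19, Ndufs6, a zinc-binding subunit, by 0.15 and Ndufv3 by 0.01. The median was 0.0595 over the 7 Ndufs genes (0.110 without wild-type array 1 and 0.0972 without knockout-labelled array 1). It was 0.0365 over the 3 Ndufv genes, and ran from -0.0272 without wild-type array 3 to 0.0873 without wild-type array 1. Over the 29 accessory genes it was 0.178, with 21 higher, and whether accessory and core genes differ was not tested.

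**Figure D3:**
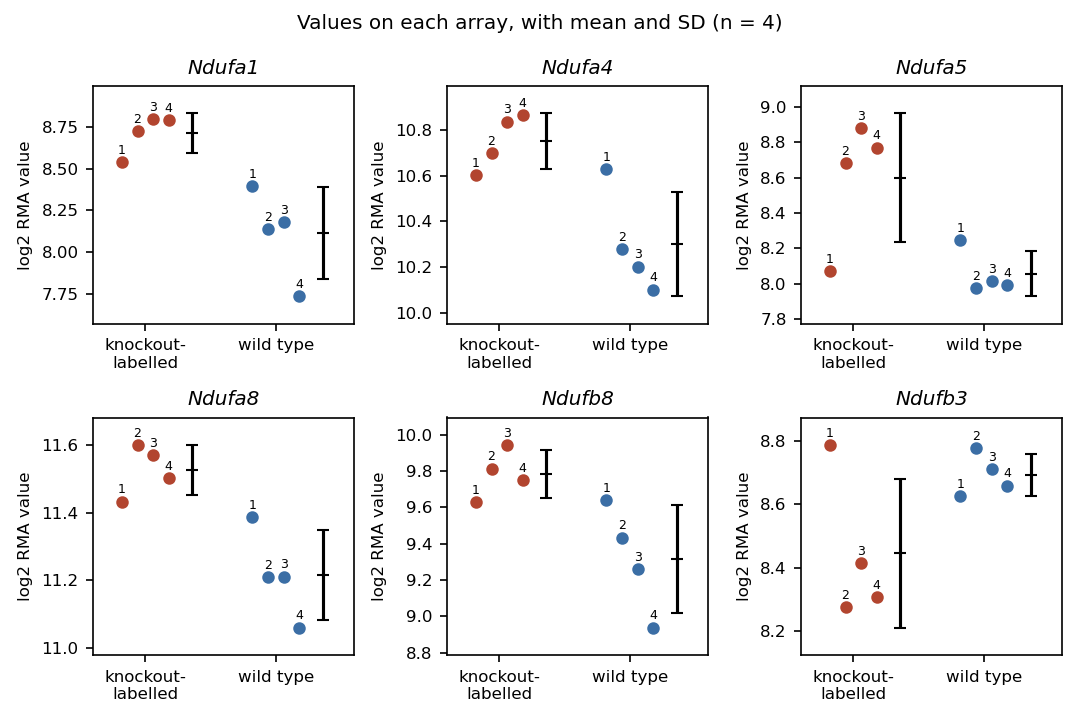
Log2 values of 6 complex I genes on each array (points, numbered by replicate; knockout-labelled in red, wild type in blue) with the mean and SD of each group (n = 4) at the right of the points. Knockout-labelled array 1 lies among the wild-type arrays in Ndufa5 and above all arrays in Ndufb3, and wild-type array 4 is lowest in Ndufa1, Ndufa4, Ndufa8 and Ndufb8.

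The number of genes that passed depended on the arrays numbered 1. With limma array weights (0.467 for knockout-labelled array 1, the least of the 8), 5 members passed, all higher: Ndufa1, Ndufa5, Ndufa4, Ndufa8 and Ndufc2 (limma adjusted p from 0.0146 to 0.0438), where 3.55% of all genes passed, 1.31% as higher and 2.23% as lower. Leaving out knockout-labelled array 1 gave 5 members as well. Ndufa1, Ndufa4, Ndufa5 and Ndufc2 were higher and Ndufb3 lower, where 4.4% of all genes passed, 1.1% as higher and 3.3% as lower. Without wild-type array 1, Ndufa1 and Ndufa4 passed (limma adjusted p = 0.0377 and 0.0378), where 0.296% of all genes passed, 0.231% as higher and 0.0652% as lower. Leaving out any of the other 6 arrays gave 0 members and 0 genes. The groups did not overlap in 9 members higher and 3 lower without knockout-labelled array 1, against 5.74% and 11.1% of all genes, and in 16 higher and 0 lower without wild-type array 1, against 4.34% and 5.81% of all genes. After centring each array on its median, 5 members higher and 0 lower did not overlap, against 2.6% and 1.14% of all genes.

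With both arrays numbered 1 left out, a choice made after seeing the data, 10 members passed. Of these 9 were higher, namely Ndufa1, Ndufa4, Ndufa5, Ndufa6, Ndufa8, Ndufa9, Ndufb8, Ndufc1 and Ndufc2, and Ndufb3 was lower, where 7.47% of all genes passed, 2.39% as higher and 5.08% as lower. At an unadjusted p under 0.05 there were 17 members higher and 2 lower, against 7.18% and 13% of all genes, and 28 members had a higher mean, against 44.9%. In that fit Ndufa5 differed by 0.78, Ndufa1 by 0.75, Ndufb8 by 0.63 and Ndufa4 by 0.60. No core gene passed, and the core median was 0.0888 beside 0.263 for the accessory genes. The groups did not overlap in 17 members higher and 3 lower (Ndufb3, Ndufb6 and Ndufs7), against 9.15% and 15.6% of all genes. Since both arrays lie toward the other group on the first principal component, their removal widens differences of that kind, and these values are no separate support.

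**Figure D4:**
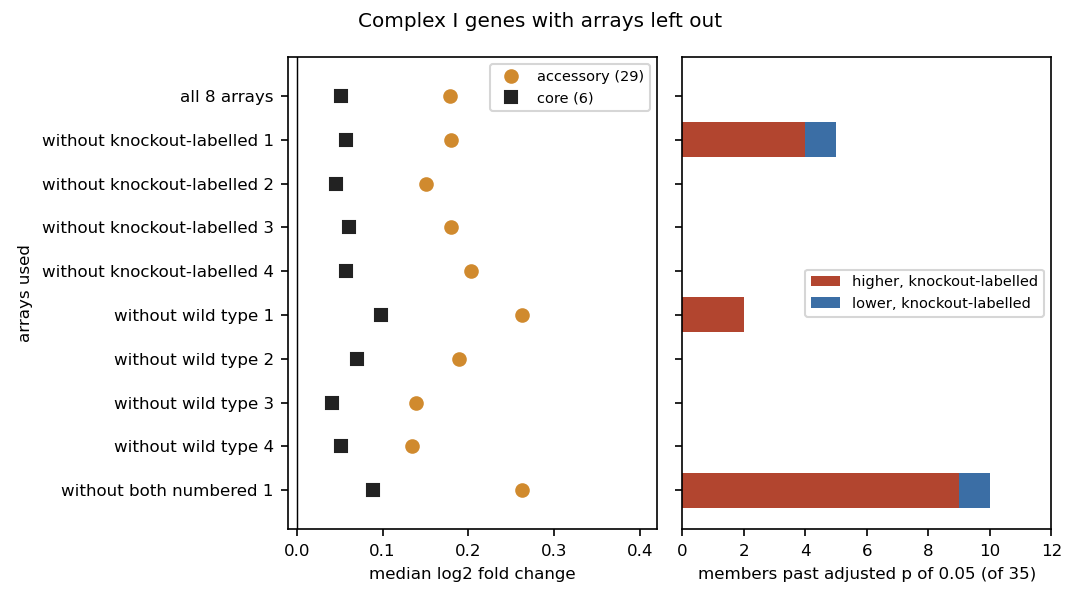
Left, the median log2 fold change (knockout-labelled minus wild type) of the 29 accessory and 6 core genes with all arrays and with arrays left out; right, the number of the 35 members past a limma adjusted p of 0.05 in each case, higher in red and lower in blue. Of the 35 members, 5 pass without knockout-labelled array 1, 2 without wild-type array 1 and 10 without both, while the accessory median stays between 0.134 and 0.263 and the core median between 0.0412 and 0.0984.

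Genes of the other respiratory complexes gave a range of medians around that of complex I. Complex III, which takes electrons from ubiquinol, had a median of 0.26 (8 of 9 measured genes higher), with Uqcrh at 0.62 (SE 0.12; limma adjusted p = 0.140) and Uqcrq at 0.49 (SE 0.13; limma adjusted p = 0.203). Complex IV, which passes electrons to oxygen, had a median of 0.155 (8 of 9 higher), with Cox7a2 at 0.50 (SE 0.11; limma adjusted p = 0.143) and Cox4i1 at 0.57 (SE 0.16; limma adjusted p = 0.225). The ATP synthase genes had a median of 0.0849 (11 of 15 higher), but 0.0241 without wild-type array 4 and 0.136 without wild-type array 1, with Atp5l at 0.55 (SE 0.12; limma adjusted p = 0.143) and Atp5j2 at 0.33 (SE 0.11; limma adjusted p = 0.314). Complex II, which bypasses complex I by feeding electrons from succinate, had a median of -0.0504 (1 of 4 higher), but -0.0297 without knockout-labelled array 4 and -0.0320 without wild-type array 3, with Sdhd at -0.19 (SE 0.09; limma adjusted p = 0.501) and Sdhb at 0.13 (SE 0.12; limma adjusted p = 0.759). None of these genes passed with all 8 arrays. Without knockout-labelled array 1, 3 genes passed in complex III, 2 in complex IV and 2 in ATP synthase, where 4.4% of all genes passed. With array weights the counts were also 3, 2 and 2, where 3.55% of all genes passed. Over the settings tried they reached at most 6, 3 and 4, and 0 in complex II, where the share of all genes reached at most 7.47%. At an unadjusted limma p under 0.05, 5 genes were higher and 1 lower in complex III, 4 higher and 0 lower in complex IV, 3 higher and 1 lower in ATP synthase, and 0 in complex II. Over all genes 3.84% were higher and 6.61% lower at that p, and 43.1% had a higher mean.

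Wild-type array 4 was the lowest of the 8 arrays in the mean of 4 of these lists as well. For complex III the knockout-labelled arrays ranged from 11.25 to 11.40, and wild-type array 4 read 10.90. For complex IV these values were 11.95 to 12.04 and 11.56, for ATP synthase 11.76 to 11.79 and 11.50, and for complex II 11.58 to 11.67 and 11.53. Wild-type array 4 was also lowest for the complex I assembly factors (8.98 to 9.15 and 8.94). The same held for the regulators of respiratory chain genes described below (9.11 to 9.18 and 9.05). For the NADH shuttles described below, wild-type array 2 was lowest (11.97) and wild-type array 4 read 11.99. The complex I assembly factors went both ways. Of the 18 listed, 16 were measured, 9 were higher and 7 lower, with a median of 0.0216 that changed sign without knockout-labelled array 1 (-0.0366) or wild-type array 4 (-0.0039). Over all genes 43.1% had a higher mean. Among the assembly factors 4 higher and 2 lower had an unadjusted limma p under 0.05, against 3.84% and 6.61% of all genes. Ndufaf2 differed by 0.56 (SE 0.09; limma adjusted p = 0.140) and Ndufaf1 by -0.95 (SE 0.18; limma adjusted p = 0.140). No assembly factor passed with all 8 arrays. Without knockout-labelled array 1, 4 of them passed, where 4.4% of all genes passed, and with array weights 5 passed, where 3.55% did. The subunits encoded in mitochondrial DNA were not analysed here.

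**Figure D5:**
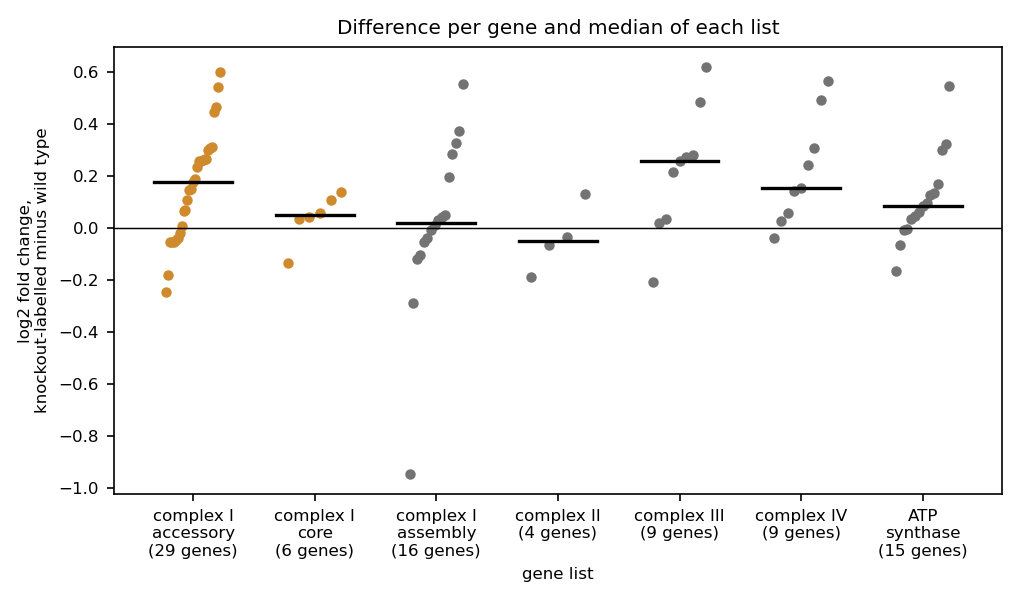
Log2 fold change (y axis, knockout-labelled minus wild type) of every measured gene in the complex I accessory and core groups (orange) and in the lists of assembly factors and the other complexes (grey), with the median of each list as a bar. The medians are 0.178, 0.0517, 0.0216, -0.0504, 0.26, 0.155 and 0.0849 from left to right.

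Markers of other liver cells are given because complex I genes are expressed in every cell type. The Kupffer cell and macrophage list (8 of 8 measured) had a mean log2 value of 9.07 to 9.87 on the knockout-labelled arrays and 8.74 to 9.44 on the wild-type arrays, highest on knockout-labelled array 4 and lowest on wild-type array 4. The endothelial list (8 of 8) ran from 10.29 to 10.59 on knockout-labelled and 10.29 to 10.54 on wild-type arrays, the stellate list (8 of 8) from 9.17 to 9.29 on knockout-labelled and 9.09 to 9.40 on wild-type arrays and the lymphocyte list (5 of 6) from 6.82 to 7.09 on knockout-labelled and 7.005 to 7.26 on wild-type arrays. The cholangiocyte list (5 of 6) ran from 6.83 to 7.25 on knockout-labelled and 6.88 to 7.35 on wild-type arrays, the red blood cell list (2 of 6) from 8.55 to 8.96 on knockout-labelled and 8.59 to 8.99 on wild-type arrays, and the muscle and fat list (6 of 6) from 6.19 to 6.35 on knockout-labelled and 6.19 to 6.32 on wild-type arrays. All groups overlapped in these lists, no marker passed, and all 6 muscle and fat markers lay below the median level of all genes. Over wild-type arrays 1 to 4 the Kupffer cell list read 9.44, 9.30, 9.01 and 8.74, the endothelial list 10.54, 10.51, 10.45 and 10.29 and the stellate list 9.40, 9.37, 9.20 and 9.09. All 3 lists were thus highest on array 1 and lowest on array 4 of the wild type. The median deviation of the complex I genes had the same order there. The remaining marker lists did not have it. On wild-type arrays 1 to 4 the cholangiocyte list read 6.88, 7.04, 7.35 and 7.16, and the red blood cell list 8.59, 8.94, 8.99 and 8.895. The muscle and fat list read 6.19, 6.23, 6.32 and 6.295 on them, and each of these was lowest on array 1. The lymphocyte list (7.26, 7.23, 7.005 and 7.009) and the hepatocyte list (13.86, 13.90, 13.85 and 13.89) were lowest on array 3. Over knockout-labelled arrays 1 to 4 the Kupffer cell list read 9.32, 9.07, 9.09 and 9.87. The endothelial list read 10.29, 10.40, 10.51 and 10.59 on them, and the stellate list 9.29, 9.23, 9.17 and 9.21. The median deviation of the complex I genes was 0.0860, 0.0939, 0.0812 and 0.0216 on these arrays, an order that none of the 3 lists had. The part of these cell types in the complex I values was not tested.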

How the data were processed

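Total RNA of 8 livers (100 ng each, biotin-labelled cDNA) was hybridised to 1 Mouse Gene 1.0 ST array per mouse. The deposited values are log2 expression values for 35556 probe sets, and the submitters' processing notes list Partek, RMA and Affymetrix Expression Console with neither version nor order. The log2 base was read from the values and from the use of RMA, which corrects background, equalises array distributions and compresses differences of dim probe sets; it hides a shift common to most genes. Array medians lay between 6.90 and 7.03. For the probe sets, no genome build is given in the sources used.

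Through the platform annotation 21789 probe sets had 1 symbol, 1621 several and 12146 none. Symbols were updated by Entrez identifier in a RefSeq table (GRCm38.p6), which held 21698 of the 21789. The brightest probe set stood for each of 19938 genes. Each probe set was fitted with limma 3.58.1 in R 4.3.3 (lmFit, eBayes with a mean-variance trend), two-sided, equal weights, without covariates, with Benjamini-Hochberg adjustment over 21789 probe sets. Single genes were also compared by exact permutation, whose smallest p is 0.0286. Groups that do not overlap always give this p, so in those genes it restates the separation. The exact permutation p was 0.0571 for Ndufa4, Ndufa5, Ndufa6, Ndufb8, Ndufb9 and Ndufc2. It was 0.0857 for Ndufc1 and 0.143 for Ndufb3 and Ndufb5. The number of arrays limits the precision. The procedure was tested on simulated data.

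Values on every array are given for the core genes, the 12 accessory genes with the smallest p, any lower gene with an unadjusted p under 0.05, and the paralogs Ndufa4 and Ndufa4l2. From each other pathway list the pair with the smallest p is named. Members, lists and this rule were chosen with earlier results of these data known. Of the list names, 15 were found through synonyms.

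Same-numbered arrays of the groups had deviations from their group means that correlated at -0.0930, -0.125, -0.0400 and 0.0738, and no pairing was assumed. Any 2 arrays correlated between 0.991 and 0.996, and each was counted as a sample.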

Additional observations from a re-analysis of the deposited data

Results flagged for a closer look

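In 4 of 70 groups of 4 arrays (35 members in each of 2 groups), 1 array stood apart from the other 3 by more than Dixon's 95% critical value for the gap divided by the range; chance alone gives about 5% of such groups, or 3.5. In Ndufb6 (0.905) the knockout-labelled arrays read 11.39, 11.09, 11.08 and 11.11, with array 1 highest. In Ndufs7 (0.848) knockout-labelled array 1 was also the highest, at 13.21 beside 13.02, 13.02 and 12.98. In Ndufb2 (0.830) knockout-labelled array 2 was the lowest, at 6.95 beside 7.09, 7.12 and 7.11. In Ndufa5 (0.848) wild-type array 1 was the highest of its group, at 8.25 beside 7.97, 8.02 and 7.99.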

How the results depend on the processing

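The count of 26 members with a higher mean kept within 23 to 30 when single arrays were left out, and the median difference of 0.138 within 0.0837 to 0.189, the lowest without wild-type array 4 and the highest without wild-type array 1. Members past the adjusted p numbered 0 with all arrays at equal weights, 0 to 5 with single arrays left out, 5 with array weights and 10 without both arrays numbered 1 (limma). The shares of all genes were 0%, 0% to 4.4%, 3.55% and 7.47% in the same order. Members whose groups do not overlap numbered 3, and 3 to 16 with single arrays left out (12 without knockout-labelled array 1 and 16 without wild-type array 1), 5 after median centring and 20 without both arrays numbered 1. Of all genes, 1.81% did not overlap as higher and 2.61% as lower with all arrays. These shares were 5.74% and 11.1% without knockout-labelled array 1, and 4.34% and 5.81% without wild-type array 1. They were 2.6% and 1.14% after median centring, and 9.15% and 15.6% without both arrays numbered 1. With the replicate number as a block, 0 members passed and the median difference was 0.138. No member passed either without the mean-variance trend, with a robust prior, without dim probe sets, after quantile normalisation or median centring, over all deposited probe sets, or with the mean of a gene's probe sets. Ndufs8 (0.04) was -0.0173 with array weights and lay between -0.0697 and 0.110 with single arrays left out, Ndufv2 (0.04) between -0.0272 and 0.0873, and Rictor (0.05) between -0.0302 and 0.145. For these reversals the cause was not tested. The Ndufv median was -0.0272 without wild-type array 3.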

Other observations

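Enzymes and shuttles that deliver NADH or electrons to the respiratory chain had a median difference of 0.073 (0.110 without knockout-labelled array 1), with 11 of 14 measured genes higher and 0 past the adjusted p. Slc25a11, the carrier that exchanges malate for oxoglutarate, differed by 0.45 (SE 0.13; limma adjusted p = 0.249), and Gpd2, the mitochondrial glycerol phosphate dehydrogenase that passes electrons to ubiquinone without complex I, by 0.49 (SE 0.15; limma adjusted p = 0.252). Gpd2 read 10.44, 10.53, 11.07 and 10.46 on knockout-labelled arrays 1 to 4, against 10.09, 9.91, 10.36 and 10.18 on wild-type arrays 1 to 4, without overlap between the groups.

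Regulators of respiratory chain genes had a median difference of 0.0042, with 8 of 14 higher, against 43.1% of all genes. This median ran from -0.0362 without knockout-labelled array 1 to 0.0472 without knockout-labelled array 2. Tfam, which packages and transcribes mitochondrial DNA, differed by 0.44 (SE 0.12; limma adjusted p = 0.230), and Tfb1m, a methyltransferase of mitochondrial ribosomal RNA, by -0.25 (SE 0.13; limma adjusted p = 0.519).

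Probe sets that carry several symbols were outside the comparison. The pair shared by Ndufb4 and Ndufb4b had mean differences of 0.12 and 0.10, knockout-labelled minus wild type, and both were lowest on wild-type array 4. The probe set shared by Ndufs5 and its pseudogene Ndufs5-ps differed by 0.27, compared with 0.19 for the probe set of Ndufs5 alone.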
